A study of Mus musculus with 18 samples.

Results

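Extracellular ATP is a danger signal for macrophages, and the genes described here encode receptors that sense it or its breakdown product adenosine and an enzyme that removes it. The set was defined as P2rx4, P2rx7, Adora2a, Adora2b and Entpd1, taken by gene symbol from the deposited array values of all 6 groups. The probe annotation used here named probe sets for 3 of the 5 genes: P2rx4 and Entpd1 had 2 each and P2rx7 had 1, so the set was 3 of 12393 measured genes and 5 of 22626 probe sets. The adenosine receptor genes Adora2a and Adora2b had no probe set in that annotation and were not analysed here.

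ATP that leaves stressed or dying cells opens P2X channels, which let calcium and sodium in. P2X4, the product of P2rx4, responds to low ATP and is found in macrophages on lysosomes and at the cell surface, whereas P2X7, the product of P2rx7, needs high ATP and causes the potassium loss that starts the NLRP3 inflammasome. Entpd1 encodes the surface ectonucleotidase that cuts ATP and ADP to AMP, which other enzymes turn into adenosine, and the adenosine receptors that couple to cyclic AMP dampen cytokine release.

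RNA came from macrophages grown out of the marrow of C57BL/6 mice 4 to 6 weeks old with L929-conditioned medium, and was measured on 18 Affymetrix arrays in 6 groups of 3. SPIO-LPS cells had 24 h with iron oxide particles (33 nm, SPIO in the labels) and then 4 h with 10 ng/ml lipopolysaccharide (LPS, from Escherichia coli O111:B4), Silica-LPS cells had 24 h with amorphous silica particles (50 nm) and then the same LPS, and LPS cells had 24 h in plain medium and then LPS. SPIO and Silica cells had the particles and then fresh medium without LPS for 4 h, and CON cells had medium throughout. No 4 h step is listed for CON, so whether CON cells had the same change of medium is not known here. Its part in the comparisons against CON was not tested. The particle concentration is 25 mg/ml in the labels, a unit that could not be checked here. The labels name no transgene or deletion in any group. The labels number the arrays of a group as biological replicates without saying whether these came from different mice, so p-values measure the spread between the 3 cultures, which may be technical, and in bulk RNA fewer cells of a type and less RNA per cell cannot be told apart.

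Values are RMA signals on a log2 scale, so a difference of 1 is a doubling, and without counts or detection calls the precision rests on the number of arrays. Arrays of 1 group correlated at 0.997 to 0.999, those of different groups at 0.946 to 0.998, and no pair was identical. Array medians were 6.22 to 6.27 with LPS, against 6.35 to 6.43 without. The macrophage genes Csf1r and Lyz2 averaged 13.92 and 14.45 in CON, and the other macrophage markers ranged from 9.33 (Itgam) to 12.57 (Cd68). Some markers of other cell types were bright in CON too, such as Pf4 (13.67), Col1a2 (13.55) and S100a8 (13.12). Others were dim, such as Mpo (5.67) and Lum (2.90). Unless stated otherwise, a gene is represented by its brightest probe set, differences come from a limma fit to all 18 arrays, "called" means a Benjamini-Hochberg adjusted p below 0.05 over all 12393 genes, and intervals cover 95%. The 11 comparisons share arrays (every comparison against CON uses the same 3 CON arrays), so values from different comparisons are given side by side only.

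The strongest and steadiest pattern was the fall of Entpd1 under LPS, about 3-fold in the deposited values whether or not the cells had been exposed to particles. P2rx4 also fell under LPS on its brighter probe set, by a smaller amount that was larger after iron oxide, and it was slightly higher after iron oxide alone. P2rx7 was dim and was called in 1 comparison, lower in SPIO-LPS than in SPIO. Silica-treated cells set against cells without particles, both with LPS or both without, differed past the threshold in none of the 3 genes, with intervals given below.

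Promoter windows of the 3 genes are shown because Entpd1 fell under LPS on both probe sets and P2rx4 on its brighter set only. P2rx7, the direct neighbour of P2rx4 in the genome, did not pass the test in LPS against CON. Its interval there, -0.37 to 0.17, includes the -0.36 of the brighter P2rx4 set, and a difference between the neighbours was not tested. Each line is the 250 bases before a transcription start in RefSeq (mouse build GRCm38.p6), and capitals mark matches to the motifs searched.
P2rx4, chr5:122707294-122707543, plus strand: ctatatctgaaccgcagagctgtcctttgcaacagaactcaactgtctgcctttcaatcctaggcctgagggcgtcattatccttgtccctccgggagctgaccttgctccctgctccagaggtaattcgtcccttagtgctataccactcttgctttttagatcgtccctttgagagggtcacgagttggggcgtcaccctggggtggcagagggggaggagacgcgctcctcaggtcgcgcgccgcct
P2rx7, first start, chr5:122643677-122643926, plus strand: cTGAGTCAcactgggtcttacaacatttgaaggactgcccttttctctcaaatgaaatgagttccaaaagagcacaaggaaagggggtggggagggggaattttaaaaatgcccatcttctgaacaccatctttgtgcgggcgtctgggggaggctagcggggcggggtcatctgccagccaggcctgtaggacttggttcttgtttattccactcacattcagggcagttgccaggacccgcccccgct
Entpd1, first start, chr19:40612116-40612365, plus strand: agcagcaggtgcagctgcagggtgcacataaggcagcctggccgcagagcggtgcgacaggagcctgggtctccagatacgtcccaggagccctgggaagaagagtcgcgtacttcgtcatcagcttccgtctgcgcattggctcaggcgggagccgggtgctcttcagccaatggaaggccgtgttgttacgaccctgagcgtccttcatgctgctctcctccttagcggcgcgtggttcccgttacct
Entpd1, second start, chr19:40659520-40659769, plus strand: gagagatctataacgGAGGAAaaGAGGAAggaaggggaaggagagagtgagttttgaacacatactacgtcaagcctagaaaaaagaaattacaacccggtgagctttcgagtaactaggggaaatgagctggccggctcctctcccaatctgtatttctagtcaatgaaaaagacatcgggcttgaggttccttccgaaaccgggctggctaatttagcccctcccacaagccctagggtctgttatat
The motifs were searched on both strands: the AP-1 site TGANTCA, the NF-kB site (GGG, any 2 bases, TTTCC), the interferon-stimulated response element (GAAA, any 2 bases, GAAA), the PU.1 core GAGGAA and the E-box CACGTG. The first start of P2rx7 held 1 AP-1 match, TGAGTCA, 249 bases before the start, a motif present in 6.75% of 32851 windows of the same length. The second start of Entpd1 held 2 PU.1 cores, 235 and 227 bases before it, a motif present in 23.3% of windows. The windows of P2rx4 and of the first Entpd1 start, and the window of a second P2rx7 start (not printed), held no match. NF-kB, interferon-response and E-box letters, absent from the 5 windows searched, occurred in 1.41%, 2.98% and 6.02% of all windows. The first Entpd1 window had 62.4% G and C and 18 CpG pairs, and the second 47.2% and 8, against medians of 52.4% and 6 over all windows.

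Entpd1, the enzyme that clears ATP, was measured on probe set 1423326_at. Its log2 signal was 7.52, 7.29 and 7.42 in the LPS arrays, against 8.88, 8.87 and 8.86 in the CON arrays. All LPS arrays lay more than a full log2 unit below every CON array. The difference was -1.46 ± 0.069 (SE, n = 3 each, interval -1.61 to -1.31), a 2.75-fold lower signal in LPS, with limma's adjusted p = 1.96e-11.

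After silica, Entpd1 read 7.13, 7.31 and 7.19 in Silica-LPS, against 8.92, 8.71 and 8.80 in Silica. After iron oxide it read 7.17, 7.34 and 7.32 in SPIO-LPS, against 8.84, 8.82 and 8.92 in SPIO. Both pairs of groups were fully separated, as LPS and CON were. Entpd1 was 3.03-fold lower in Silica-LPS than in Silica (-1.60 ± 0.069, limma's adjusted p = 6.26e-12) and 3.00-fold lower in SPIO-LPS than in SPIO (-1.58 ± 0.069, limma's adjusted p = 7.16e-12). The size of the Entpd1 falls depends on the scaling. After cyclic loess they were -1.27 in LPS against CON, -1.41 in Silica-LPS against Silica and -1.38 in SPIO-LPS against SPIO, all still called.

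Neither particle moved Entpd1 past the threshold in resting cells. The difference was -0.01 in SPIO against CON (interval -0.16 to 0.14, limma's adjusted p = 0.934) and -0.06 in Silica against CON (interval -0.21 to 0.08, limma's adjusted p = 0.684). Within LPS-treated cells it was -0.13 in SPIO-LPS against LPS (interval -0.28 to 0.02, limma's adjusted p = 0.170) and -0.20 in Silica-LPS against LPS (interval -0.35 to -0.05, limma's adjusted p = 0.144). The arrays of the compared groups overlapped in all of these comparisons, and changes beyond 0.21 in resting cells or 0.35 under LPS lay outside the intervals. The change of the LPS effect with particles, tested as an interaction, was -0.12 for iron oxide (interval -0.33 to 0.09, limma's adjusted p = 0.557) and -0.14 for silica (interval -0.34 to 0.07, limma's adjusted p = 0.867). Between the particles it was 0.06 in SPIO against Silica (interval -0.09 to 0.20) and 0.07 in SPIO-LPS against Silica-LPS (interval -0.08 to 0.22), with overlapping arrays. From low to high the group means were 7.21 ± 0.090 in Silica-LPS, 7.28 ± 0.091 in SPIO-LPS, 7.41 ± 0.12 in LPS, 8.81 ± 0.10 in Silica, 8.86 ± 0.051 in SPIO and 8.87 ± 0.0060 in CON (SD, n = 3 each). The only neighbours in that order whose arrays did not overlap were LPS and Silica.

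The second Entpd1 probe set, 1450939_at, was dimmer and showed the same fall. It read 5.42, 5.43 and 5.60 in LPS, against 7.44, 7.02 and 7.29 in CON, 3.41-fold lower in LPS (-1.77 ± 0.097, limma's adjusted p = 1.36e-10 over all probe sets). It read 5.60, 5.40 and 5.51 in Silica-LPS, against 7.28, 7.37 and 7.41 in Silica, a difference of -1.85. In SPIO-LPS it read 5.26, 5.52 and 5.31, against 7.50, 7.41 and 7.48 in SPIO, a difference of -2.10 and a 4.29-fold lower signal. Here too every LPS-treated array was below every array without LPS. On this probe set Entpd1 was 0.21 higher in SPIO than in CON (interval 0.01 to 0.42), and its iron oxide interaction was -0.33 (interval -0.62 to -0.04), neither past the threshold (limma's adjusted p = 0.111 and 0.190).

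P2rx4, the ATP-gated channel of lysosomes and cell surface, was the brightest of the 3 signals. On probe set 1425525_a_at it read 10.96, 10.97 and 11.02 in LPS, against 11.32, 11.40 and 11.31 in CON. All LPS arrays were below all CON arrays, a 1.28-fold lower signal in LPS (-0.36 ± 0.038, interval -0.44 to -0.28, limma's adjusted p = 4.91e-07). Its readings were 10.94, 10.92 and 10.93 in Silica-LPS, against 11.40, 11.37 and 11.40 in Silica. Those groups were separated, with Silica-LPS 1.38-fold lower (-0.46 ± 0.038, limma's adjusted p = 2.57e-08). The size of both falls depends on the scaling and the probe sets: after cyclic loess they were -0.20 in LPS against CON and -0.29 in Silica-LPS against Silica, and with the mean of both probe sets they were -0.16 and -0.25, all still called.

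On its brighter probe set P2rx4 was called in both directions with iron oxide, higher without LPS and lower with LPS. It read 11.45, 11.50 and 11.49 in SPIO, above all 3 CON arrays, a 1.10-fold higher signal in SPIO (0.14 ± 0.038, limma's adjusted p = 0.0117). It read 10.85, 10.87 and 10.79 in SPIO-LPS, below all 3 LPS arrays, a 1.11-fold lower signal in SPIO-LPS (-0.15 ± 0.038, limma's adjusted p = 0.00824). Both differences are small, and on the dimmer probe set, described below, only the rise was called. In a fit to the compared groups alone they had limma adjusted p = 0.0676 and 0.10, and with the mean of both probe sets the difference between SPIO-LPS and LPS was -0.09 with limma's adjusted p = 0.168, whereas that between SPIO and CON was 0.23 and called. Set against their own particle control, SPIO-LPS arrays were 1.56-fold lower than SPIO arrays (-0.64 ± 0.038, interval -0.73 to -0.56, limma's adjusted p = 3.87e-10).

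The iron oxide interaction put a test on that contrast. The LPS effect on P2rx4 was -0.64 after iron oxide and -0.36 without particles, a difference of -0.28 ± 0.054 (interval -0.40 to -0.17, n = 3 in each of 4 groups, limma's adjusted p = 0.00294). It kept its sign and stayed called in all 8 alternative settings (-0.32 to -0.27, limma adjusted p up to 0.0210) and without any 1 array. For silica the same interaction was -0.10 (interval -0.22 to 0.02, limma's adjusted p = 0.804).

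Silica itself left P2rx4 within narrow limits. The difference was 0.05 in Silica against CON (interval -0.03 to 0.13, limma's adjusted p = 0.572) and -0.05 in Silica-LPS against LPS (interval -0.13 to 0.03, limma's adjusted p = 0.539). On the brighter probe set the particles did not differ past the threshold: SPIO was 0.09 above Silica (interval 0.01 to 0.17, limma's adjusted p = 0.103) and SPIO-LPS was 0.09 below Silica-LPS (interval -0.18 to -0.01, limma's adjusted p = 0.0930), although the arrays did not overlap in either pair. Both differences passed in some other settings, the first with a variance trend, the mean of probe sets or cyclic loess (limma's adjusted p = 0.0380, 0.0117 and 0.0370) and the second with a variance trend or without the dimmest genes (limma's adjusted p = 0.0320 and 0.0453). Group means were 10.84 ± 0.039 in SPIO-LPS, 10.93 ± 0.011 in Silica-LPS and 10.98 ± 0.036 in LPS, and 11.48 ± 0.026 in SPIO, 11.39 ± 0.022 in Silica and 11.34 ± 0.045 in CON (SD, n = 3 each). Ordered by level, Silica and CON were the only neighbours whose arrays overlapped.

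The dimmer P2rx4 probe set, 1452527_a_at, did not show the fall under LPS alone. It read 8.88, 8.75 and 8.92 in LPS, against 8.83, 8.86 and 8.77 in CON, a difference of 0.03 whose interval, -0.10 to 0.17, leaves out the -0.36 of the brighter set (limma's adjusted p = 0.692 over all probe sets). It read 8.82, 8.89 and 8.80 in Silica-LPS, against 8.93, 8.75 and 8.94 in Silica, a difference of -0.03 (limma's adjusted p = 0.699). Both pairs of groups overlapped. The response to iron oxide, in contrast, ran the same way on both sets. The dimmer set read 9.06, 9.14 and 9.19 in SPIO, above every CON array (0.31 ± 0.063, 1.24-fold, limma's adjusted p = 0.00125) and above every Silica array (0.26 ± 0.063, limma's adjusted p = 0.00718). It read 8.80, 8.89 and 8.76 in SPIO-LPS, all below the SPIO arrays (-0.32 ± 0.063, limma's adjusted p = 0.000432), and its iron oxide interaction was -0.35 ± 0.090 (limma's adjusted p = 0.0266). Between SPIO-LPS and LPS it differed by -0.04 (limma's adjusted p = 0.736). The difference between the probe sets was not tested, and which P2rx4 transcripts each of them detects was not analysed here.

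Markers of other cell types also moved with iron oxide, and some with silica. Among all genes, 33.8% were called in SPIO against CON, 32.7% in SPIO-LPS against LPS and 58.2% in LPS against CON. Of 9 neutrophil markers 7 were lower and 1 was higher in SPIO than in CON, and their summed signal on the log2 scale was 13.92 to 13.97 in SPIO, against 14.39 to 14.48 in CON, and 13.90 to 13.93 in SPIO-LPS, against 14.31 to 14.35 in LPS. Of 10 fibroblast markers 5 were lower in SPIO than in CON (sums 14.41 to 14.45 in SPIO, against 14.68 to 14.71 in CON) and 6 in SPIO-LPS than in LPS (14.08 to 14.12 in SPIO-LPS, against 14.36 to 14.43 in LPS). Of 9 macrophage markers 6 were lower and 2 higher in SPIO than in CON, with sums of 15.73 to 15.75 in SPIO, against 15.80 to 15.82 in CON, and 15.86 to 15.89 in SPIO-LPS, against 15.92 to 15.93 in LPS. In the marker lists of dendritic, B, T and NK, mast, endothelial, and erythroid and platelet cells, at most 2 markers per list were called in SPIO against CON and at most 3 in SPIO-LPS against LPS, all lower. The erythroid and platelet sum, in which Pf4 was the brightest gene, was 12.81 to 12.90 in SPIO, against 13.66 to 13.73 in CON. It was 12.88 to 12.95 in SPIO-LPS, against 13.60 to 13.66 in LPS. The sums of the remaining lists were also lower in SPIO than in CON. Under LPS alone 4 neutrophil markers were lower and 2 higher, and 5 fibroblast markers were lower and 4 higher, than in CON. Of the macrophage markers 6 were lower and 2 higher there. With silica, 3 fibroblast markers were higher in Silica than in CON and 2 in Silica-LPS than in LPS. Among all genes, 4.02% and 2.86% were called in those comparisons. The fibroblast sum was 14.80 to 14.89 in Silica, against 14.68 to 14.71 in CON. No neutrophil or macrophage marker was called in them, and the other lists held at most 1 call each, lower. The 3'-to-5' signal difference of the Gapdh control probe sets, a measure of RNA and labelling quality, averaged 0.40 in SPIO-LPS, 0.43 in Silica-LPS, 0.52 in LPS, 0.47 in SPIO, 0.56 in Silica and 0.69 in CON, and that of Actb averaged 0.52, 0.44, 0.38, 0.66, 0.62 and 0.59 in the same order. The part of these differences in the P2rx4, P2rx7 and Entpd1 results was not tested.

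**Figure D1:**
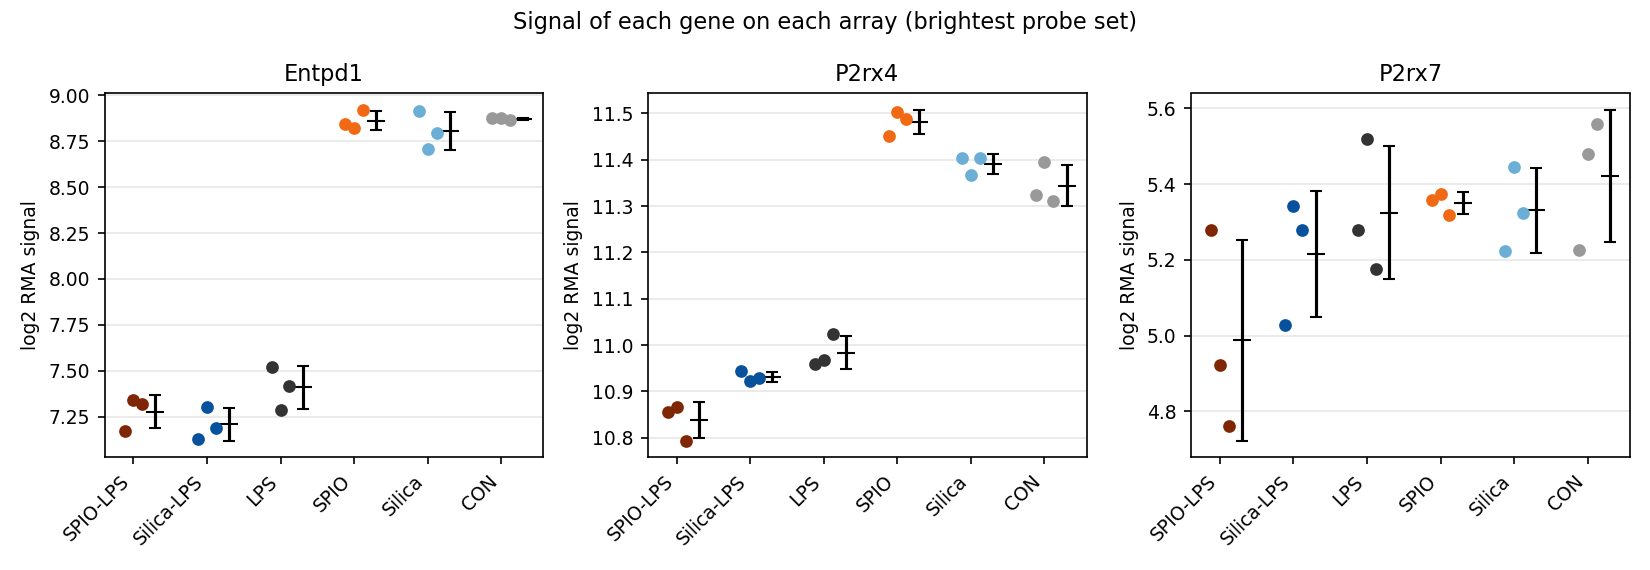
Log2 RMA signal (y axis, a separate scale for each gene) of Entpd1, P2rx4 and P2rx7 on each of the 18 arrays, by group (x axis), with bars for the mean ± SD of 3 arrays. Entpd1 lies between 7.13 and 7.52 in the 3 groups with LPS and between 8.71 and 8.92 in the 3 without, and P2rx4 is highest in SPIO (mean 11.48) and lowest in SPIO-LPS (mean 10.84). All pairs of P2rx7 groups overlap apart from SPIO-LPS and SPIO. SPIO-LPS overlaps the rest only through replicate 1 (5.28, against 4.92 and 4.76 in its other arrays).

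**Figure D2:**
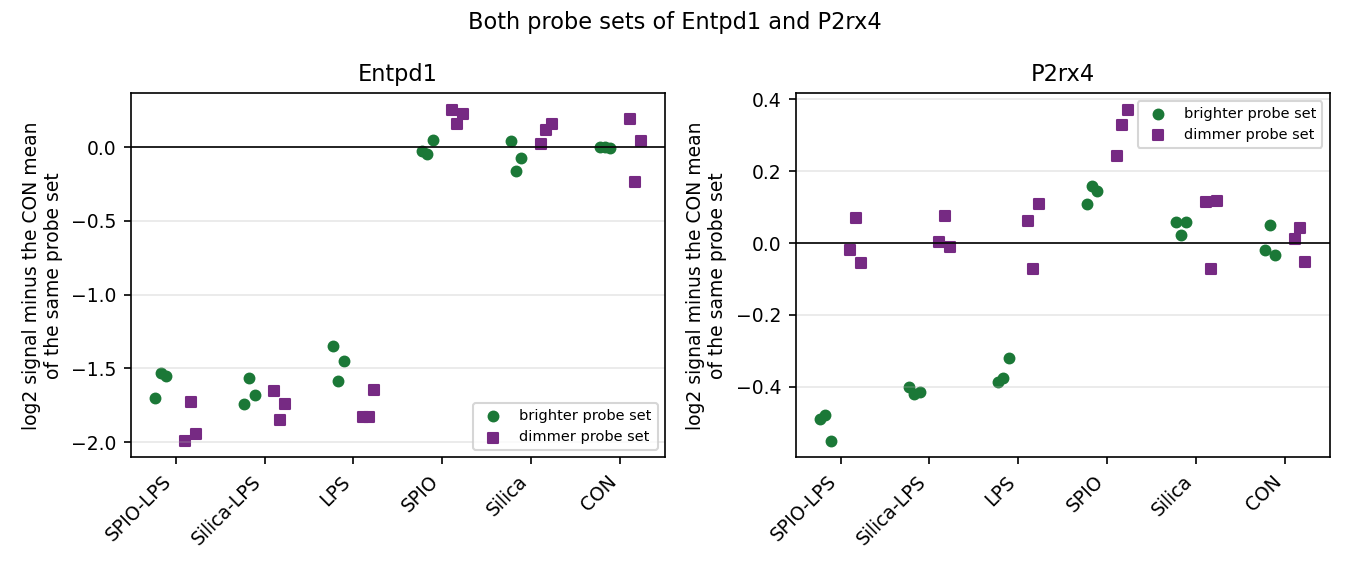
Log2 signal of the brighter (circles) and dimmer (squares) probe set of Entpd1 and P2rx4 on each array, minus that probe set's own CON mean (y axis), by group (x axis). Both Entpd1 sets drop in all 3 LPS groups, whereas for P2rx4 the brighter set drops (mean 10.98 in LPS, against 11.34 in CON) and the dimmer set does not (8.85 in LPS, against 8.82 in CON), and both P2rx4 sets are highest in SPIO.

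P2rx7, the channel that links high ATP to the inflammasome, gave a signal below the array medians in every group and was the least precise of the 3 genes, with a standard error of 0.13 on each difference. It read 5.28, 4.92 and 4.76 in SPIO-LPS, against 5.36, 5.37 and 5.32 in SPIO. All SPIO-LPS arrays were below all SPIO arrays, but by only 0.04 for the closest pair of values shown. SPIO-LPS was 1.29-fold lower (-0.36 ± 0.13, interval -0.63 to -0.09, limma's adjusted p = 0.0214), and this call was lost without SPIO replicate 2 (-0.35, limma's adjusted p = 0.0543), without SPIO-LPS replicate 2 (-0.33, limma's adjusted p = 0.0655) or without SPIO-LPS replicate 3 (-0.25, limma's adjusted p = 0.112).

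No other comparison of P2rx7 passed with all arrays. It read 5.28, 5.52 and 5.18 in LPS, against 5.23, 5.48 and 5.56 in CON, and the 2 groups overlapped (-0.10, interval -0.37 to 0.17, limma's adjusted p = 0.542). Its values were 5.03, 5.34 and 5.28 in Silica-LPS, against 5.22, 5.45 and 5.32 in Silica, again overlapping (-0.11, interval -0.39 to 0.16, limma's adjusted p = 0.473). SPIO-LPS was lower than LPS by a similar amount as it was lower than SPIO, with overlapping arrays (-0.34, interval -0.61 to -0.07, limma's adjusted p = 0.0547). That difference became called without CON replicate 1, LPS replicate 3, Silica-LPS replicate 1 or SPIO-LPS replicate 1 (limma's adjusted p = 0.0469, 0.0373, 0.0475 and 0.00636). The difference was -0.07 in SPIO against CON (interval -0.34 to 0.20, limma's adjusted p = 0.709) and -0.09 in Silica against CON (interval -0.36 to 0.18, limma's adjusted p = 0.775). The iron oxide interaction was -0.26 with an interval of -0.65 to 0.12 (limma's adjusted p = 0.464), so a shift like that of P2rx4 lies inside the interval and so does none. The remaining differences were -0.11 in Silica-LPS against LPS (interval -0.38 to 0.16), 0.02 in SPIO against Silica (interval -0.25 to 0.29), -0.23 in SPIO-LPS against Silica-LPS (interval -0.50 to 0.04, called at -0.37 without SPIO-LPS replicate 1, with limma's adjusted p = 0.0359) and -0.02 for the Silica interaction (interval -0.40 to 0.37). From low to high, group means were 4.99 ± 0.27 in SPIO-LPS, 5.22 ± 0.17 in Silica-LPS, 5.32 ± 0.18 in LPS, 5.33 ± 0.11 in Silica, 5.35 ± 0.029 in SPIO and 5.42 ± 0.17 in CON (SD, n = 3 each), and all neighbours in this order overlapped.

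Counted together, 2 of the 3 genes were called in LPS against CON, both lower, where 58.2% of all genes were called and 36.1% were lower. In Silica-LPS against Silica 2 of 3 were called, both lower, against 57.3% of all genes called and 35.8% lower. All 3 were lower in SPIO-LPS than in SPIO, where 64.1% of genes were called and 36.7% were lower. In SPIO against CON 1 of 3 was called, higher, against 33.8% of genes called and 19.6% higher, and in SPIO-LPS against LPS 1 of 3, lower, against 32.7% called and 14.6% lower. The calls, 2 of 3 in the first and second of these comparisons and 1 of 3 in the last 2, are shares near the background. The SPIO interaction called 1 of 3, lower, against 8.8% of all genes called and 5.07% lower. The split of calls depends on the scaling: cyclic loess gave 3276 higher and 3618 lower genes in LPS against CON, in place of 2747 and 4469, 3370 and 3547 in Silica-LPS against Silica, in place of 2662 and 4442, and 3631 and 3769 in SPIO-LPS against SPIO, in place of 3387 and 4551. In LPS against CON the median difference of the 3 genes was -0.36, against -0.01 over all genes, and the Entpd1 change exceeded in size that of 94.0% of genes.

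Groups without overlapping arrays were also common among all genes: 63.3% in LPS against CON and 63.4% in Silica-LPS against Silica, where Entpd1 and P2rx4 did not overlap, and 65.8% in SPIO-LPS against SPIO, where none of the 3 genes did. For P2rx4, which did not overlap in the other comparisons with iron oxide either, the share of all genes was 47.6% in SPIO against CON, 40.4% in SPIO-LPS against LPS, 40.5% in SPIO against Silica and 40% in SPIO-LPS against Silica-LPS. It was 21.9% in Silica-LPS against LPS, where the P2rx4 arrays did not overlap although the gene was not called.

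Silica gave few calls among all genes, 4.02% in Silica against CON (304 higher and 194 lower, or 253 and 268 after cyclic loess), 2.86% in Silica-LPS against LPS and 0.0161% for the Silica interaction, and limma called none of the 3 genes in these comparisons (0, 1 and 0 of them had an unadjusted p below 0.05). Between particles limma also called none of the 3 (1 with an unadjusted p below 0.05 in each comparison), where 26.1% of all genes were called in SPIO against Silica and 25.1% in SPIO-LPS against Silica-LPS. Over the 11 comparisons P2rx4 was called in 6 (lower in 5 and higher in 1), Entpd1 in 3 and P2rx7 in 1, each time lower.

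**Figure D3:**
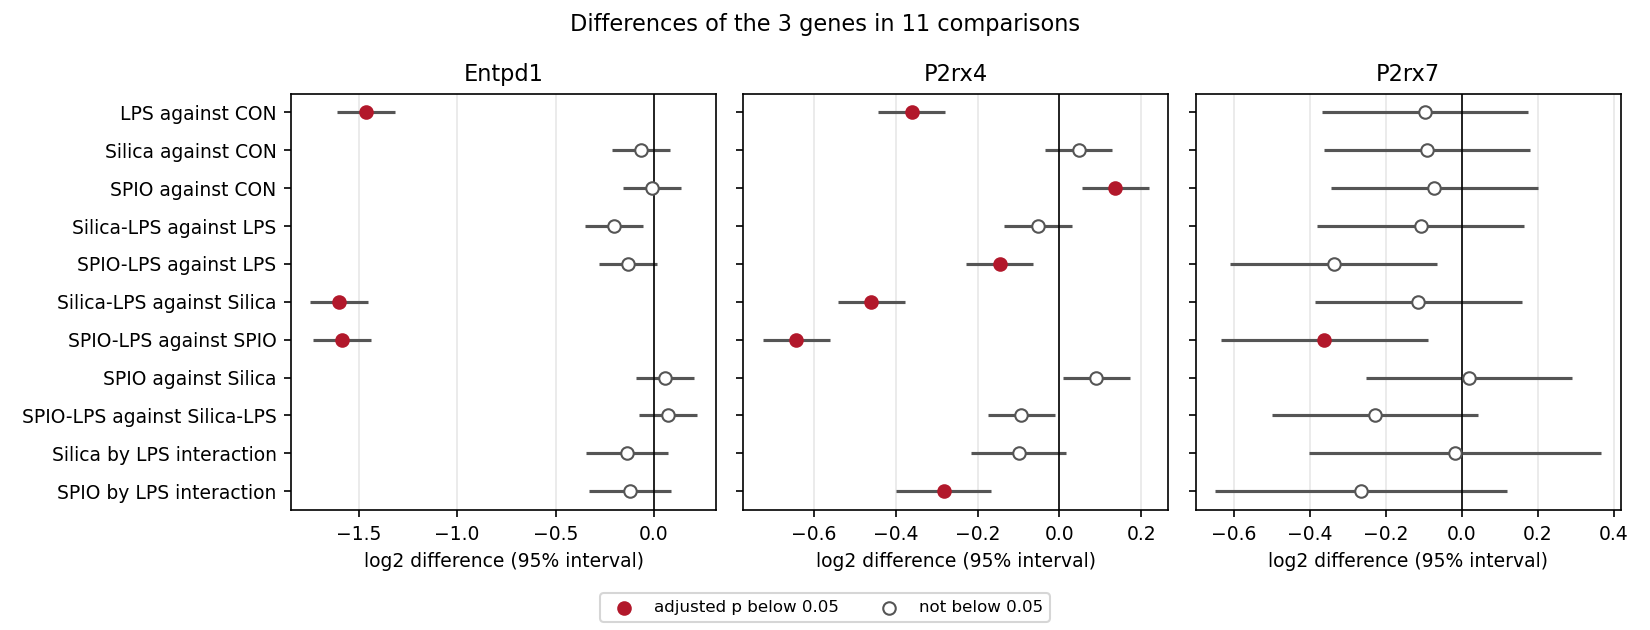
Log2 difference (x axis, a separate scale for each gene) of Entpd1, P2rx4 and P2rx7 in the 11 comparisons (rows), first-named group minus second, with 95% intervals, and filled points where limma's adjusted p was below 0.05. Entpd1 is filled only in the 3 rows that set LPS against no LPS, near -1.5, and P2rx4 also in SPIO against CON (0.14), SPIO-LPS against LPS (-0.15) and the iron oxide interaction (-0.28), but not in the rows that set the particles against each other.

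Across the 18 arrays P2rx4 and Entpd1 correlated at 0.967, P2rx4 and P2rx7 at 0.538, and P2rx7 and Entpd1 at 0.473, as a description of arrays that share 6 groups and 1 normalization. These correlations and the likenesses below used each gene's brightest probe set. The dimmer P2rx4 set, at 8.85 in LPS and 8.82 in CON, was left out of them. Among 2378 genes whose group means spanned at least 1 on the log2 scale, those most alike P2rx4 were Adi1 (0.994), Bpgm (0.988) and Wdr12 (0.988). Those most alike Entpd1 were Dhrs3 (0.996), Ctage5 (0.996) and Slc16a7 (0.995), among 2377 genes. P2rx7 had no close match, with Polr1a (0.680), Fcgr3 (0.677) and P2ry6 (0.674) at the top.

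P2rx7 and P2rx4 lie side by side in the gene order of GRCm38.p6, with 0 protein-coding genes between them. The next gene after P2rx4 was Camkk2, a calcium-dependent kinase gene. It rose by 0.88 ± 0.062 in LPS against CON (limma's adjusted p = 3.46e-09). There P2rx4 was at -0.36 on its brighter probe set and 0.03 on the dimmer one, and P2rx7 was at -0.10. Camkk2 also rose by 0.38 ± 0.062 in SPIO against CON (limma's adjusted p = 0.000199). Directly before Entpd1, Tctn3 was lower in LPS than in CON (-1.27 ± 0.14, limma's adjusted p = 8.28e-07). After Entpd1 the nearest measured gene was Ccnj, with 1 protein-coding gene between them, and it was higher in LPS than in CON (2.10 ± 0.12, limma's adjusted p = 1.52e-10).

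Other receptors for extracellular nucleotides also differed under iron oxide, P2ry12 and P2ry6 by the most. Of 6 measured P2Y receptor genes, 1 was higher and 2 were lower in SPIO than in CON, and 3 were lower in SPIO-LPS than in LPS. Among all genes, 33.8% were called in SPIO against CON and 32.7% in SPIO-LPS against LPS. P2ry12, the ADP receptor, averaged 5.05 in SPIO-LPS, 6.47 in LPS, 7.19 in SPIO and 8.40 in CON. It was thus 2.68-fold lower in SPIO-LPS than in LPS and 2.31-fold lower in SPIO than in CON (limma's adjusted p = 6.55e-09 and 4.24e-08), and 3.8-fold lower in LPS than in CON (limma's adjusted p = 1.47e-11). P2ry6, the UDP receptor, averaged 9.54 in SPIO-LPS, 10.85 in LPS, 10.81 in SPIO and 11.56 in CON, and its iron oxide interaction was -0.55 ± 0.068 (limma's adjusted p = 5.95e-05). P2ry6 was also the P2Y gene called after silica, lower by 0.27 in Silica against CON and by 0.30 in Silica-LPS against LPS (limma's adjusted p = 0.00527 and 0.00366). P2ry14, the receptor for UDP sugars, and P2ry2, which senses ATP and UTP, rose under LPS, by 2.01 and 0.84 in LPS against CON (limma's adjusted p = 6.10e-11 and 4.00e-07). P2ry2 also rose in SPIO against CON, by 0.52, and P2ry14 was lower in SPIO-LPS than in LPS (-0.42). Of 4 other P2X genes, P2rx5 was called in LPS against CON (0.43 ± 0.081, limma's adjusted p = 0.000214), where 58.2% of all genes were called.

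Of 7 other measured ectonucleotidase and ectophosphatase genes, 2 were lower in LPS than in CON, Entpd7 (-1.08) and Entpd5 (-0.88), both relatives of Entpd1 that work inside the cell, and 1 was higher, Entpd2 (0.31). Among all genes, 58.2% were called in LPS against CON. Entpd5 was higher in SPIO than in CON (0.38), in SPIO-LPS than in LPS (0.39) and in Silica-LPS than in LPS (0.39, limma's adjusted p = 0.00701), where Entpd1 was at -0.01, -0.13 and -0.20. In Silica against CON the Entpd5 difference was 0.17 and not called (limma's adjusted p = 0.229). Nt5e, whose enzyme makes adenosine from the AMP that Entpd1 leaves, averaged 5.49 in SPIO-LPS, 5.74 in LPS, 5.49 in SPIO and 5.63 in CON and was not called in LPS against CON, SPIO against CON or SPIO-LPS against LPS. Among 4 genes for nucleotide release, Panx1, which forms an ATP-permeable channel, averaged 9.51 in SPIO-LPS, 7.67 in LPS, 9.60 in SPIO and 8.23 in CON. It was 3.56-fold higher in SPIO-LPS than in LPS and 2.59-fold higher in SPIO than in CON (limma's adjusted p = 6.93e-12 and 2.96e-10), whereas it was lower in LPS than in CON (-0.56 ± 0.061, limma's adjusted p = 6.45e-07).

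Of 12 genes of adenosine uptake and removal, 2 rose and 4 fell in LPS against CON, led by Pnp, which splits purine nucleosides (2.01 ± 0.053). For this and the next 2 lists, the shares of all genes called were 58.2% in LPS against CON, 33.8% in SPIO against CON and 32.7% in SPIO-LPS against LPS. Ampd3, which removes AMP by deamination, averaged 11.40 in SPIO-LPS, 9.99 in LPS, 9.46 in SPIO and 8.70 in CON, 2.66-fold higher in SPIO-LPS than in LPS and 1.70-fold higher in SPIO than in CON (limma's adjusted p = 2.60e-10 and 2.41e-07). Of 9 measured genes of P2X7 and inflammasome output, 7 rose and 2 fell in LPS against CON, where P2rx7 was at -0.10. Il1b, the interleukin-1 beta gene, rose by 6.63 and Nlrp3, the sensor, by 3.04. In SPIO against CON 3 of the 9 rose and 3 fell, the falls led by Il1b (-1.51) and Nlrp3 (-0.54), and in SPIO-LPS against LPS 4 fell, led by Il18 (-0.61) and Pycard (-0.59), the adaptor gene. Of 18 genes of cyclic AMP signalling and its output, 5 rose and 10 fell in LPS against CON, and 4 fell in SPIO-LPS against LPS, led by Il10 (-1.96), an anti-inflammatory cytokine gene, and Vegfa (-0.998). The median differences of these lists in SPIO-LPS against LPS were -0.23 for P2Y receptors, -0.16 for inflammasome output and -0.06 for cyclic AMP signalling, against 0.01 over all genes.

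**Figure D4:**
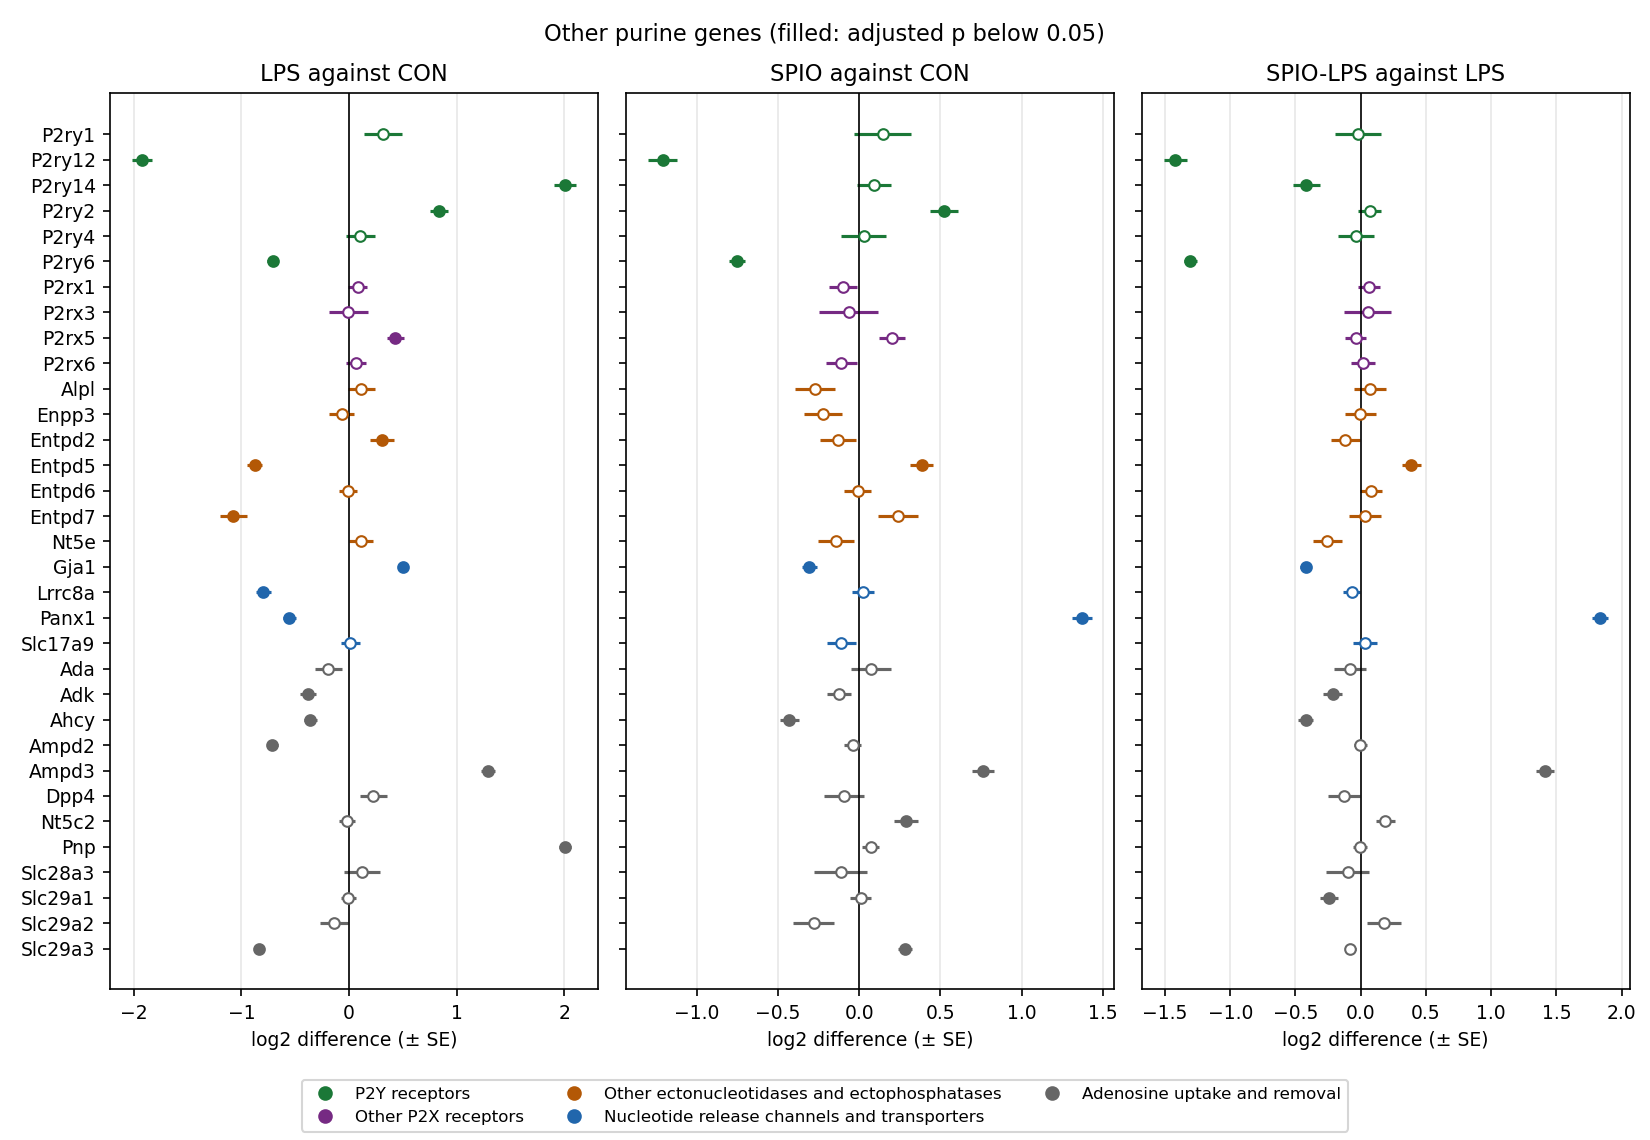
Log2 difference ± SE (x axis, a separate scale for each panel) of the other measured purine genes (rows, coloured by list) in LPS against CON, SPIO against CON and SPIO-LPS against LPS, filled where limma's adjusted p was below 0.05. Panx1 and Ampd3 stand on the right in both iron oxide panels (1.37 and 0.76 in SPIO against CON) and P2ry12 and P2ry6 on the left (-1.21 and -0.75).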

How the data were processed

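Per the labels' protocols, total RNA was labelled from an oligo-dT primer and hybridised to Affymetrix arrays. The deposited values are log2 signals from RMA, per the submitters' processing notes (software, version and settings: not given in the sources used here). Of 22690 probe sets 64 were controls, and of the others 20380 had 1 gene symbol, 691 several and 1555 none. The probe set with the highest mean represented each of 12393 genes. The fit in limma 3.58.1 (lmFit with a mean for each of the 6 groups, contrasts.fit, eBayes at its defaults) used all 18 arrays, with Benjamini-Hochberg adjustment within each of 11 comparisons, and was tested on simulated data. The 3 genes, the 8 lists of purine genes, the marker lists and the promoter motifs were chosen with earlier results of these data known. Genes named from a purine list come from the 4 called genes with the largest change in a comparison, Nt5e being added after its values were seen, and genes named for likeness are the 3 with the highest correlation. Promoters came from RefSeq tables. Settings varied were a block for replicate number, fitting only the compared groups, a trended variance with a robust prior, dropping the dimmest 33.3% of genes, testing each probe set separately, averaging the probe sets of a gene, cyclic loess, array weights and omission of single arrays.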

Additional observations from a re-analysis of the deposited data

Results flagged for a closer look

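The LPS effect on P2rx4 differed between cells with and without iron oxide by the interaction test: -0.28 ± 0.054 (limma's adjusted p = 0.00294), with LPS effects of -0.64 in SPIO-LPS against SPIO and -0.36 in LPS against CON. The dimmer probe set gave -0.35, with LPS effects of -0.32 in SPIO-LPS against SPIO and 0.03 in LPS against CON. Groups of 3 arrays were not tested for outlying arrays.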

How the results depend on the processing

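Each of the 33 differences of P2rx4, P2rx7 and Entpd1 was recomputed in 8 other settings and without each of the 18 arrays, 858 values in all. Of these, 829 kept their direction and their side of the threshold, 6 were no longer called, 12 became called and 11 changed sign. The falls of Entpd1 and P2rx4 in the 3 comparisons of LPS against no LPS, and the iron oxide interaction of P2rx4, stayed called throughout. These values came from a gene's brighter probe set or the mean of its probe sets, never from the dimmer set on its own. On its own the dimmer P2rx4 set was not called in LPS against CON (0.03, limma's adjusted p = 0.692). It was not called in Silica-LPS against Silica either (-0.03, limma's adjusted p = 0.699). The cause of each change below was not tested. P2rx4 in SPIO against CON was no longer called in the fit to the compared groups alone (0.14, limma's adjusted p = 0.0676), and in SPIO-LPS against LPS in that fit (-0.15, 0.10) and with the mean of probe sets (-0.090, 0.168). In SPIO against Silica P2rx4 became called with a variance trend (0.090), the mean of probe sets (0.18) and cyclic loess (0.12), and in SPIO-LPS against Silica-LPS with a variance trend and without the dimmest genes (both -0.093). P2rx7 in SPIO-LPS against LPS became called with a variance trend and without the dimmest genes (both -0.34), and in 4 of 18 fits that left out 1 array, over which it ranged from -0.48 to -0.22. P2rx7 ranged likewise from -0.51 to -0.25 in SPIO-LPS against SPIO, with 3 calls lost, and from -0.37 to -0.11 in SPIO-LPS against Silica-LPS, with 1 call gained. Sign changes concerned differences that were never called: with the mean of probe sets Entpd1 was at 0.017 in Silica against CON, 0.10 in SPIO against CON and -0.035 in SPIO-LPS against Silica-LPS, and P2rx7 was at 0.0013 in the Silica interaction with cyclic loess and -0.010 in SPIO against Silica with array weights. When 1 array was left out, Entpd1 in SPIO against CON ranged from -0.038 to 0.010, P2rx7 in SPIO against Silica from -0.035 to 0.076, and P2rx7 in the Silica interaction from -0.092 to 0.081. Cyclic loess moved mean levels of P2rx4 to 10.90 in SPIO-LPS, 11.01 in Silica-LPS, 11.07 in LPS, 11.41 in SPIO, 11.29 in Silica and 11.27 in CON, of Entpd1 to 8.74 in SPIO and 8.80 in CON, and of P2rx7 to 5.38 in SPIO.

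Over all genes, Silica against CON called 498 genes, and 110 (compared groups alone), 850 (variance trend), 755 (without the dimmest genes), 919 (array weights) or 203 to 550 (1 array left out). Silica-LPS against LPS called 355, and 63, 577, 536 (the first 3 of these settings) or 186 to 385. The Silica interaction called 2, and 0 with the replicate block, with the compared groups alone or with every probe set, 40 with a variance trend, 5 without the dimmest genes, 1 with the mean of probe sets or cyclic loess, and 0 to 2 with 1 array left out. With every probe set on its own, more features were tested and 12335 were called in LPS against CON, 12203 in Silica-LPS against Silica, 13495 in SPIO-LPS against SPIO, 7131 in SPIO against CON, 6648 in SPIO-LPS against LPS, 5245 in SPIO against Silica and 4923 in SPIO-LPS against Silica-LPS. Same-numbered arrays were typically no more alike than others: over 45 same-numbered pairs the deviations from group means correlated at -0.315 to 0.187 (median -0.0148, against -0.00207 for other pairs). Of these pairs 8 were above 0.1. Such correlations cannot show whether some groups shared a mouse or a day. The replicate block changed no call of the 3 genes. With 3 arrays a group, differences within about 0.17 for a typical gene, or 0.27 for P2rx7, lie inside the interval around no change.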
